A study of Mus musculus with 4 samples.

Results

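Messenger RNA for 10 genes of uterine contraction and electrical coupling was read in 4 mouse libraries. The genes were chosen by symbol: the oxytocin receptor Oxtr, the endothelin Edn1 and its receptors Ednra and Ednrb, the connexins Gja1, Gja4, Gja5 and Gjb2, and the calcium channel subunits Cacna1c and Cacna1h. All 10 symbols were found among 28545 genes in each library. The tissue was labelled as endometrium, while the series' design text speaks of uterine tissue taken at proestrus. The comparison was of 2 libraries from SMAD7fl/fl mice (called floxed here), in which loxP sites were placed in Smad7 by Cas9 in fertilised eggs, with 2 libraries from mice labelled SMAD7 Cre+/- (called Cre here), with the treatment label CKO. The design text calls the control mice WT, although the sample labels give them the floxed allele. The Cre driver, the deleted exons, the age of the mice and any pooling of animals were not stated in the labels. No label ties a library to an animal of its own, and the p-values rest on the spread of the 4 libraries alone, part of which may be technical.

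As background, oxytocin and endothelin act on receptors coupled to G proteins, which release calcium from internal stores of smooth muscle cells. Calcium also enters through voltage-gated channels, and together these drive myosin and force. Connexins form gap junctions, through which current passes from cell to cell, so that the myometrium can contract as one. In the uterus Oxtr and Gja1 are known for their increase towards birth and under oestrogen, and Gjb2 for its place in the epithelium.

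The libraries held 17444368 to 22950532 counts. Smad7, which checks the labels, went against them: the deposited FPKM (counts scaled to gene length and library total) was 7.79 and 7.81 in the floxed libraries and 49.9 and 33.9 in the Cre libraries. Every direction below is therefore that of the libraries labelled Cre, and not of a shown loss of Smad7. Counts are per whole gene and the deleted exons are not stated. Exchanged labels and transcripts that lack an exon but are still counted therefore cannot be told apart here. The cause of the higher Smad7 level in the Cre libraries was not tested, and it need not be either of these. The floxed libraries differed from each other more than the Cre libraries did, with a median ratio of the higher to the lower level of 1.36 over genes against 1.15. Of 13513 genes tested, 0 passed an adjusted p under 0.05 in edgeR's quasi-likelihood test (percent called 0.0), and 1878 (13.9%) had an unadjusted p under 0.05. DESeq2 called 843. An exact permutation test of any single gene cannot go below p = 0.333 with 2 against 2 libraries.

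Promoter sequence is shown for 3 of the genes because they differ most in what follows: Oxtr and Cacna1c stood apart between the groups, and Gja1, usually named with Oxtr, hardly differed. RefSeq entries on GRCm38.p6 were found for 9 of the 10 genes. Each line is the 250 bases before a RefSeq start, 5′ to 3′ on the gene's strand. Capitals mark matches on either strand to any of 6 motifs: a TATA box (TATAAA), a GC box (GGGCGG), an AP-1 site (TGANTCA), an E-box (CACGTG), a SMAD box (CAGAC) and an short oestrogen receptor motif (GGTCA).
Oxtr, minus strand, chr6:112489826-112490075: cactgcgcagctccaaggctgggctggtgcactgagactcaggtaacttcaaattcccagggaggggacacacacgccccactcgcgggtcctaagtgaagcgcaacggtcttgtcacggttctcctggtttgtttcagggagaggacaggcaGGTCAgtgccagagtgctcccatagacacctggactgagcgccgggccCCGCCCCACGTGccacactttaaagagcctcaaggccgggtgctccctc
Gja1, plus strand, chr10:56377050-56377299: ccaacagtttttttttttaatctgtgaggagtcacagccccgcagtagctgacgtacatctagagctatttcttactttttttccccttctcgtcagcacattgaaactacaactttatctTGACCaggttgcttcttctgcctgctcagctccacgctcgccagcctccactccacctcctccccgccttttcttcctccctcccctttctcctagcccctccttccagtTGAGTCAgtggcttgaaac
Cacna1c, the most upstream of 3 RefSeq starts, minus strand, chr6:119196410-119196659: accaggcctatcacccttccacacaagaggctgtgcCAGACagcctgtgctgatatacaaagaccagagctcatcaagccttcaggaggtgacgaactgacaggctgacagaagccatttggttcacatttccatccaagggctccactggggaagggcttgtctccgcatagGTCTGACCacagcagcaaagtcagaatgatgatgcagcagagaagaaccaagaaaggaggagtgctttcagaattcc

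The Oxtr window held 1 GGTCA motif, 1 GC box and 1 E-box. The GC box and the E-box lie side by side, starting 49 and 43 bases before the start. GENCODE places the outer end of Oxtr 118 bases further upstream than RefSeq. The part of this window that holds all of its marked matches is thus transcribed in that annotation. The Gja1 window held 1 GGTCA motif and 1 AP-1 site, and the Cacna1c window 1 GGTCA motif and 2 SMAD boxes. A SMAD box and the GGTCA motif overlap there, starting 77 and 74 bases before the start. Neither window of the other Cacna1c starts, not shown, held the GGTCA motif. The window at chr6:119108496-119108745 held 6 GC boxes and 1 SMAD box, and the remaining window held no match. Which start was used in this tissue was not tested. Of all 32851 RefSeq windows of this length, 35.2% held the GGTCA motif, 32.7% the GC box and 6.02% the E-box. The AP-1 site was in 6.75%, the SMAD box in 42.2% and the TATA box in 12.4%. These matches describe letters only.

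Among the 10 genes, Oxtr differed most between the groups, and Cacna1c came next. All 10 passed the filter on low levels, a mean FPKM of at least 1, and each was above 1 FPKM in every library. None passed an adjusted p under 0.05. At an unadjusted p under 0.05, 2 of the 10 were higher in the Cre libraries, against 7.3% of all genes tested, and 0 were lower, against 6.59%. The groups did not overlap for 5 of the 10, all higher in the Cre libraries, where 24.7% of all genes were higher without overlap, 23.6% lower and 48.3% either way. The median log2 fold change of the 10 was 0.21, beside -0.033 over all genes tested. It was 0.65 without floxed replicate 1 and 0.13 without Cre replicate 2. DESeq2 called 2 of the 10, Oxtr and Cacna1c, against 6.24% of all genes, and edgeR with no filter called the same 2, against 7.04%. Without floxed replicate 1, when the spread is that of the Cre libraries, 6 of the 10 passed in edgeR, against 31.4% of all genes. Without floxed replicate 2 it was 3 of the 10, against 21.8%.

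**Figure D1:**
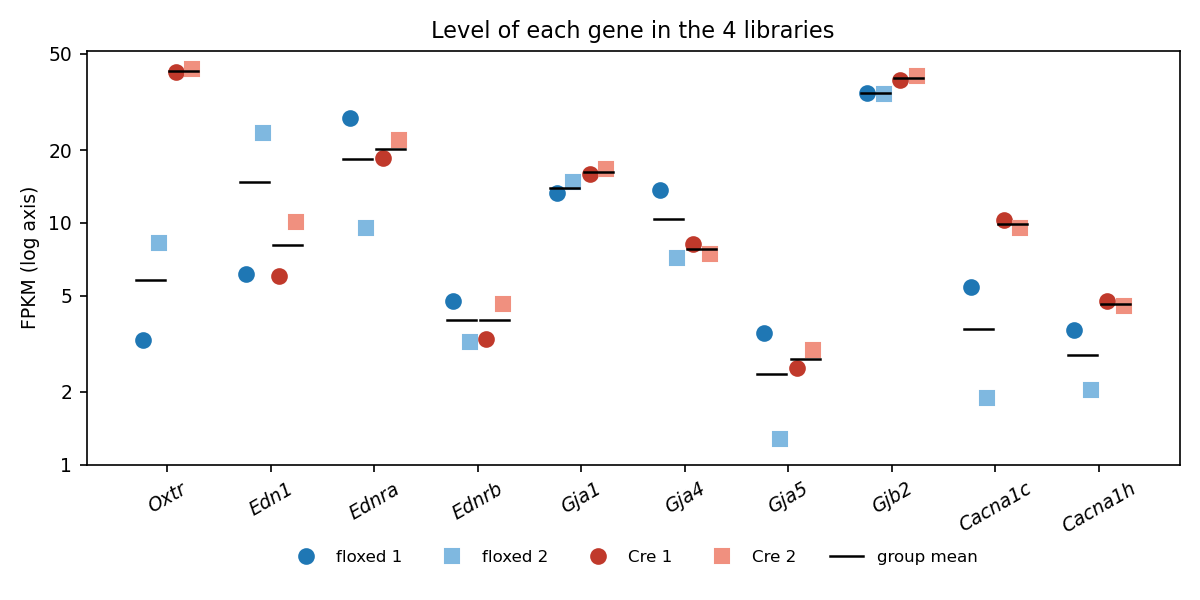
Deposited FPKM on a log axis for each of the 10 genes in each library (circles, replicate 1; squares, replicate 2; blue, floxed; red, Cre), with black lines at the group means. Oxtr lies at 3.27 and 8.28 in the floxed libraries and at 41.9 and 43.2 in the Cre libraries, while Gja1 and Gjb2 barely differ between any of the 4.

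The order of the genes differed between the groups. By mean FPKM in the floxed libraries the order was Gjb2 (34.3), Ednra (18.4), Edn1 (14.8), Gja1 (14), Gja4 (10.4), Oxtr (5.78), Ednrb (3.98), Cacna1c (3.65), Cacna1h (2.83) and Gja5 (2.38). Gjb2 was above the others in both floxed libraries, but from Ednra on each gene overlapped with the next in this order. In the Cre libraries Oxtr came first (42.6), followed by Gjb2 (39.7), Ednra (20.3), Gja1 (16.3), Cacna1c (9.91), Edn1 (8.06), Gja4 (7.80), Cacna1h (4.63), Ednrb (3.97) and Gja5 (2.74). Oxtr ranked 10 and 5 of 10 in the floxed libraries and 1 in both Cre libraries. In the Cre libraries the neighbours that overlapped were Cacna1c with Edn1, Edn1 with Gja4, and Cacna1h with Ednrb.

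Oxtr (ENSMUSG00000049112, chromosome 6, 112473683 to 112489943, minus strand of GRCm38) encodes the receptor through which oxytocin contracts the myometrium. It had 359 and 722 counts in the floxed libraries and 3982 and 3608 in the Cre libraries, or 3.27, 8.28, 41.9 and 43.2 FPKM in that order. Both Cre libraries were far above both floxed libraries, and they lay close together while the floxed libraries differed by a factor of 2.54. The group means were 5.78 ± 3.55 and 42.6 ± 0.890 FPKM (SD, n = 2 each). The log2 fold change was 2.86 ± 0.51 (SE), or 7.26-fold, and edgeR gave an adjusted p of 0.135. It was 2.31 without floxed replicate 1 and 3.74 without floxed replicate 2, and both of these passed in edgeR (adjusted p 2e-07 and 2.09e-10), with the spread taken from the Cre libraries. It was 2.86 with DESeq2 (adjusted p 1.74e-06). Without Cre replicate 1 or 2 it was 2.87 and 2.84 and did not pass. No exon base of Oxtr is shared with another annotated gene. Among the other 9 genes at most 2.87% of exon bases are shared, in Gja5.

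**Figure D2:**
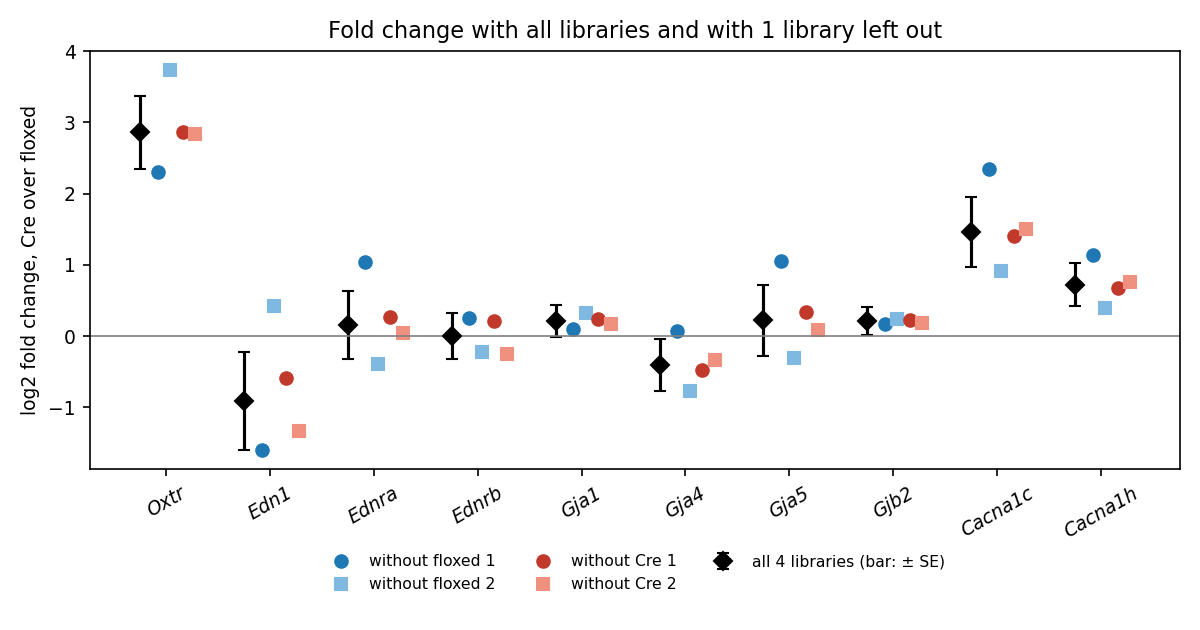
Log2 fold change of the Cre over the floxed libraries for each gene in edgeR, with all 4 libraries (black diamonds, bars ± SE) and with 1 library left out (coloured points). Oxtr stays between 2.31 and 3.74 and Cacna1c between 0.91 and 2.34, whereas Edn1 spans -1.60 to 0.43.

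Smooth muscle markers, which include the main contractile proteins of the myometrium, were also higher in the Cre libraries. Summed over 16 markers they stood at 2671 and 2483 FPKM in the floxed libraries and at 4349 and 3601 in the Cre libraries. Of the 16, 14 were higher without overlap, against 24.7% of all genes tested. At an unadjusted p under 0.05 in edgeR 7 were higher, against 7.3%. Their median log2 fold change was 0.71, and no marker was at 0 in any library. Acta2, smooth muscle actin, was at 1050 and 909 against 1450 and 1440 FPKM, and Myl9, a myosin light chain, at 633 and 726 against 1070 and 705. Fewer cells of a type and less RNA per cell cannot be told apart in such bulk samples. Scaled to 1000 FPKM of these markers (a ratio, like the others below, chosen after the values were seen), Oxtr stood at 1.22 and 3.34 in the floxed libraries and at 9.64 and 12 in the Cre libraries. That is a 4.74-fold difference of means, smaller than the 7.37-fold difference of the mean FPKM itself, and the groups still did not overlap. Acta2 and Myl9 made up most of this marker sum, and their mean FPKM differed 1.48-fold and 1.31-fold. Myh11, the myosin heavy chain of smooth muscle, differed more, at 167 and 93.5 against 362 and 297 FPKM (2.53-fold). Against Myh11, Oxtr stood at ratios of 0.0196 and 0.0886 in the floxed and 0.116 and 0.146 in the Cre libraries. How much of the Oxtr difference goes with the smooth muscle share of the tissue was not tested.

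Of 33 other genes for hormones, receptors and oxytocin breakdown in the myometrium, 30 were found and 16 passed the filter. None passed the test. By an unadjusted p under 0.05 in edgeR, 2 were higher and 1 was lower, against 7.3% and 6.59% of all genes tested. The median log2 fold change of the 16 was 0.25, or 0.14 without Cre replicate 1. Rxfp1, the relaxin receptor, known for keeping the uterus relaxed, stood at 8.67 and 10.7 FPKM in the floxed and 43.5 and 44.0 in the Cre libraries. Its log2 fold change was 2.17 ± 0.27 (SE; adjusted p 0.0981 in edgeR). Rxfp1 thus had levels close to those of Oxtr in the Cre libraries and above them in both floxed libraries. The best known actions of these receptors are opposite. Agtr2, an angiotensin II receptor, stood at 2.20 and 3.87 against 8.81 and 11 FPKM (log2 fold change 1.69). Bdkrb2, the bradykinin receptor that raises calcium in smooth muscle, stood at 6.15 and 3.71 against 2.26 and 1.44 FPKM (log2 fold change -1.40). So not every receptor that contracts the uterus was higher in the Cre libraries. Lnpep, the aminopeptidase that breaks down oxytocin, stood at 15.2 and 6.27 against 16 and 18.7 FPKM, with the Cre libraries only just above floxed replicate 1.

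Edn1 (ENSMUSG00000021367, chromosome 13, 42301476 to 42307990, plus strand) encodes endothelin-1, a peptide made by endothelium and epithelium that constricts smooth muscle. It had 301 and 913 counts in the floxed libraries and 255 and 377 in the Cre libraries, or 6.13, 23.5, 6.01 and 10.1 FPKM. Floxed replicate 2 stood alone at the top, and the other 3 libraries lay together. The log2 fold change was -0.91 ± 0.69 (SE; adjusted p 0.591 in edgeR). Its direction rested on that library: it was 0.43 without floxed replicate 2 (adjusted p 0.377) and -1.60 without floxed replicate 1 (adjusted p 5.88e-05). The ratio of the 2 floxed libraries, 3.83, was the largest within either group among the 10 genes.

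Ednra (ENSMUSG00000031616, chromosome 8, 77663031 to 77724464, minus strand), the receptor through which endothelin-1 contracts smooth muscle, was the more abundant receptor in every library. It stood at 27.2 and 9.54 FPKM in the floxed and 18.6 and 22.0 in the Cre libraries, from 3424, 950, 2021 and 2097 counts. The Cre libraries lay between the floxed ones, and the log2 fold change was 0.16 ± 0.48 (SE; adjusted p 0.902 in edgeR), with 1.04 without floxed replicate 1 (adjusted p 0.000939) and -0.39 without floxed replicate 2. Ednrb (ENSMUSG00000022122, chromosome 14, 103814625 to 103844402, minus strand), the receptor that in endothelium leads to relaxation and clears the peptide, stood at 4.76 and 3.20 against 3.31 and 4.62 FPKM. The groups overlapped fully and the log2 fold change was 0.00038 ± 0.32 (SE; adjusted p 1.0 in edgeR). Ednra over Ednrb was 5.72 and 2.98 in the floxed and 5.62 and 4.75 in the Cre libraries, so this ratio overlapped too.

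The other endothelin genes gave no shared direction. Of 6 in the list, 4 were tested, 0 passed, and their median log2 fold change was -0.16, or -0.50 without Cre replicate 1. Edn3, another ligand of these receptors, was the only one with an unadjusted p under 0.05 in edgeR, as 13.9% of all genes tested had. It stood at 2.18 and 4.17 FPKM in the floxed and 0.858 and 0.781 in the Cre libraries (log2 fold change -1.97 ± 0.47, SE; adjusted p 0.199 in edgeR). Ece1, the protease that cuts endothelin-1 from its precursor, stood at 26.0 and 16.3 against 27.6 and 22.1 FPKM, and Mme, a protease that degrades the peptide, at 14.6 and 7.87 against 7.64 and 12.6. Both overlapped between the groups.

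Gja1 (ENSMUSG00000050953, chromosome 10, 56377330 to 56402513, plus strand) encodes Cx43, the main gap junction protein of the myometrium and of stromal cells. It stood at 13.3 and 14.7 FPKM in the floxed and 15.9 and 16.7 in the Cre libraries, from 3136, 2741, 3224 and 2990 counts. The groups did not overlap, yet the gap was small: the log2 fold change was 0.21 ± 0.22 (SE; adjusted p 0.69 in edgeR), and 0.098 to 0.33 with 1 library left out. Oxtr over Gja1 was 0.245 and 0.564 in the floxed libraries and 2.64 and 2.58 in the Cre libraries. These genes, often named together as contraction genes of late pregnancy, thus differed to unequal degrees here. Per 1000 FPKM of smooth muscle markers Gja1 was at 4.99 and 5.92 against 3.64 and 4.64, lower in both Cre libraries.

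Gjb2 (ENSMUSG00000046352, chromosome 14, 57098600 to 57104702, minus strand) encodes Cx26, a connexin of the uterine epithelium. It was the most abundant connexin in all 4 libraries, at 34.5 and 34.1 FPKM in the floxed and 38.9 and 40.5 in the Cre libraries. The groups did not overlap, with a log2 fold change of 0.21 ± 0.20 (SE; adjusted p 0.665 in edgeR) that stayed between 0.17 and 0.24 with 1 library left out. Gjb2 over Gja1 was 2.59 and 2.32 against 2.45 and 2.42, so the balance of these connexins overlapped between the groups. The summed epithelium markers were 1056 and 1795 FPKM in the floxed and 1493 and 1293 in the Cre libraries, and also overlapped. Of 12, 2 were higher and 2 lower without overlap, against 24.7% and 23.6% of all genes tested. Their median log2 fold change was 0.085 and ran from -0.21 to 0.38 with 1 library left out. Krt8 was at 177 and 244 against 257 and 198 FPKM, and Krt19 at 151 and 230 against 283 and 198.

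Gja4 (ENSMUSG00000050234, chromosome 4, 127311421 to 127314039, minus strand) and Gja5 (ENSMUSG00000057123, chromosome 3, 96904693 to 97077416, plus strand) encode Cx37 and Cx40, which couple endothelial cells, above all in arteries. Gja4 stood at 13.7 and 7.14 FPKM in the floxed and 8.14 and 7.45 in the Cre libraries, with floxed replicate 1 above the other 3. Its log2 fold change was -0.41 ± 0.37 (SE; adjusted p 0.648 in edgeR), -0.77 without floxed replicate 2 (adjusted p 0.0323) and 0.076 without floxed replicate 1. Gja5 was the least abundant of the 10, at 3.49 and 1.27 against 2.50 and 2.98 FPKM, and its Cre libraries lay between the floxed ones. Its log2 fold change was 0.22 ± 0.49 (SE; adjusted p 0.858 in edgeR), 1.06 without floxed replicate 1 (adjusted p 0.0113) and -0.31 without floxed replicate 2. Both were thus set by which floxed library was read. The 12 blood endothelium markers summed to 200.7 and 176.0 FPKM in the floxed and 144.7 and 147.2 in the Cre libraries. The 7 arterial markers summed to 107.5 and 95.7 against 83.4 and 79.8. Most of the arterial sum was Sox17 and Efnb2, and which cells of this tissue express them was not tested. Over all genes tested, 24.7% were higher and 23.6% lower without overlap. Of the 12, 2 were higher and 6 lower without overlap (median log2 fold change -0.26, and -0.13 without floxed replicate 1). Of the 7, 2 were higher and 2 lower (median 0.17, and -0.095 without floxed replicate 2). The endothelial markers Cldn5 and Cdh5 and the arterial markers Sox17 and Efnb2 were all lower without overlap, with Cldn5 at 35.1 and 51.4 against 24.6 and 25.5 FPKM and Sox17 at 48.2 and 42.3 against 32.2 and 31.1. Per 1000 FPKM of the endothelium markers Gja4 was at 68.2 and 40.6 against 56.3 and 50.6, and Gja5 at 17.4 and 7.23 against 17.3 and 20.3, which overlap.

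**Figure D3:**
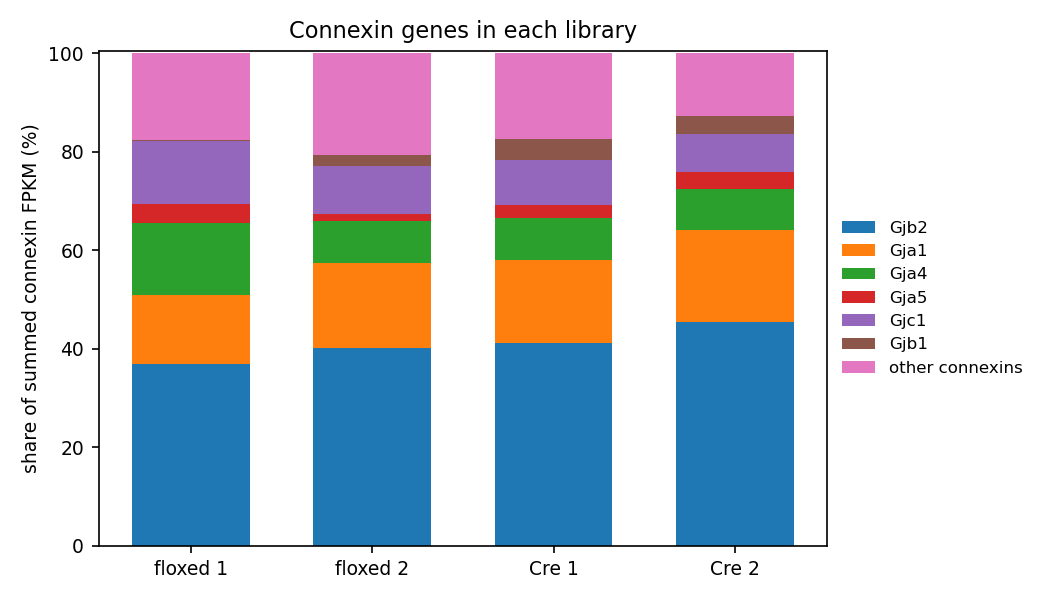
Share of the summed connexin FPKM taken by 6 named connexin genes and by the others together in each library, as stacked bars from 0 to 100%. Gjb2 takes 36.8% and 40.2% in the floxed and 41.2% and 45.4% in the Cre libraries, and Gja4 takes 14.6% in floxed replicate 1 and 8.36% to 8.62% in the others.

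Connexin RNA as a whole was level. Summed over 18 connexin genes it was 93.8 and 84.9 FPKM in the floxed and 94.4 and 89.2 in the Cre libraries, which overlap. Of 20 other connexins, pannexins and the Cx43 partner Tjp1, 17 were found and 6 tested, 0 passed, and the median log2 fold change was -0.18, ranging from -0.45 to 0.056 with 1 library left out. Gjc1, which encodes Cx45, a connexin of vessels and smooth muscle, was next to the 10 genes in level, at 12 and 8.21 against 8.53 and 6.97 FPKM. Tjp1, the scaffold ZO-1, was at 29.1 and 18.8 against 25.2 and 30.9. Gjb1, a connexin of epithelium, was at 0.281 and 1.87 against 3.99 and 3.22 FPKM, higher in the Cre libraries without overlap, and did not pass (adjusted p 0.457 in edgeR).

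Cacna1c (ENSMUSG00000051331, chromosome 6, 118587240 to 119196418, minus strand) encodes the pore of the L-type channel, the main calcium entry of the contracting myometrium. It had 2715 and 753 counts in the floxed libraries and 4449 and 3646 in the Cre libraries, or 5.41, 1.89, 10.3 and 9.56 FPKM. Both Cre libraries were above both floxed ones, and the floxed ones differed by a factor of 2.86. The group means were 3.65 ± 2.49 and 9.91 ± 0.496 FPKM (SD, n = 2 each), and the log2 fold change was 1.46 ± 0.49 (SE), or 2.75-fold, with an adjusted p of 0.296 in edgeR. It was 2.34 without floxed replicate 1 (adjusted p 1.82e-07), 0.91 without floxed replicate 2 (adjusted p 0.00262) and 1.47 with DESeq2 (adjusted p 0.0484). Against Myh11 it stood at 0.0324 and 0.0202 in the floxed and 0.0284 and 0.0322 in the Cre libraries, so per unit of this smooth muscle gene the groups overlapped, unlike Oxtr. Per 1000 FPKM of all 16 smooth muscle markers it was at 2.03 and 0.762 against 2.36 and 2.65, without overlap.

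Cacna1h (ENSMUSG00000024112, chromosome 17, 25374285 to 25433783, minus strand) encodes the pore of a T-type channel, which opens near the resting potential and is found in pacing and vascular muscle. It stood at 3.62 and 2.03 FPKM in the floxed and 4.74 and 4.53 in the Cre libraries, from 811, 361, 917 and 771 counts. The groups did not overlap, but the log2 fold change of 0.72 ± 0.30 (SE) had an adjusted p of 0.377 in edgeR. It was 1.14 without floxed replicate 1 (adjusted p 0.000545) and 0.39 without floxed replicate 2 (adjusted p 0.215). Cacna1c over Cacna1h was 1.49 and 0.931 in the floxed and 2.17 and 2.11 in the Cre libraries. Per 1000 FPKM of smooth muscle markers Cacna1h overlapped between the groups, at 1.36 and 0.819 against 1.09 and 1.26.

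Of 20 other voltage-gated calcium channel subunits, 19 were found and 9 tested. None passed. The median log2 fold change of the 9 was 0.53, or 0.018 without floxed replicate 2. By an unadjusted p under 0.05 in edgeR, 2 were higher and 0 were lower, against 7.3% and 6.59% of all genes tested. The higher ones were the beta subunits Cacnb1 and Cacnb2, which bring the pore to the membrane. Cacnb1 stood at 2.26 and 2.14 FPKM against 3.73 and 3.66, and Cacnb2 at 1.87 and 1.78 against 2.54 and 3.79. Reads of Cacnb2 were uncertain over 7.32% of its exon bases, shared with antisense genes. Cacna2d3, an accessory subunit, was at 0.350 and 0.838 against 1.63 and 1.21 FPKM (adjusted p 0.393 in edgeR). Of the most abundant subunits, Cacnb3 was at 19.3 and 23.2 against 19.3 and 18 (log2 fold change -0.20), and Cacng7 at 27.8 and 15.8 against 16.1 and 12.2 (-0.61). Cacna2d1 was at 9.04 and 3.41 against 6.64 and 8.23 (0.27), with its groups overlapping.

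Downstream of the receptors, 33 of 37 genes of calcium release and force were tested. None passed. By an unadjusted p under 0.05 in edgeR, 4 were higher and 0 were lower, against 7.3% and 6.59% of all genes tested. Without overlap 16 were higher and 2 lower, against 24.7% and 23.6%. The median log2 fold change was 0.44, and 0.082 without floxed replicate 2. Ryr3, a calcium release channel of internal stores, stood at 0.641 and 0.136 against 2.37 and 2.15 FPKM (log2 fold change 2.56 ± 0.69, SE; adjusted p 0.233 in edgeR). Kcnmb1, the smooth muscle subunit of the large-conductance potassium channel that opposes contraction, stood at 4.32 and 7.34 against 12.9 and 13.5. Another was Rock2, a kinase that keeps myosin active, at 9.87 and 4.99 against 13.0 and 15.1 FPKM. It is named after its values were seen. Genes known to favour and to oppose contraction were thus among the higher ones. The most abundant members overlapped or nearly so. Mylk, the kinase that starts contraction, was at 98.2 and 52.2 against 106 and 96.6 FPKM (6.85% of exon bases shared), Atp2a2, the calcium pump of the stores, at 76.0 and 38.3 against 76.1 and 82.4, and Rgs5, a pericyte regulator of G proteins, at 89.9 and 35.0 against 38.3 and 49.9.

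**Figure D4:**
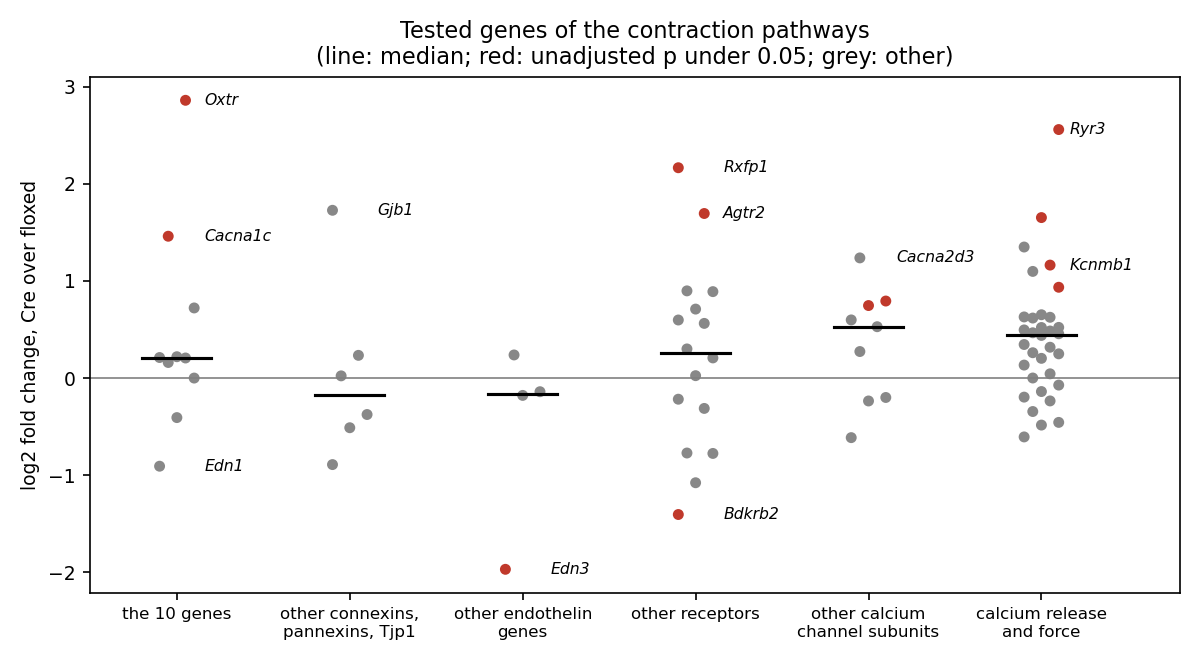
Log2 fold change of the Cre over the floxed libraries for every tested gene of the 6 gene groups, 1 point per gene, with black lines at the medians and red points for an unadjusted p under 0.05. Oxtr at 2.86 lies above every other tested gene of these groups, followed by Ryr3 at 2.56 and Rxfp1 at 2.17, and no gene passed an adjusted p under 0.05.

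Genes known to respond to oestrogen in the uterus also differed. Floxed replicate 1 was the lower floxed library for most of the 12 listed, but not for all. Clca1, a secreted protein of the epithelium, was at 7.06 FPKM in floxed replicate 1, 433 in floxed replicate 2 and 592 and 400 in the Cre libraries. C3, a complement protein, was at 81.1, 511, 746 and 537 FPKM, and Ltf, lactoferrin, at 203, 603, 1070 and 643 in the same order. Floxed replicate 1 was thus the lowest for all 3, as it was for Oxtr. The same held for Lcn2, at 48.2, 576, 424 and 331 FPKM, and for Muc1, Padi1 and Padi2. Greb1, an oestrogen receptor target, was at 1.41 and 3.81 against 17.4 and 19.1 FPKM (7.68% of its exon bases are shared with other genes), and Esr1, the receptor itself, at 28.3 and 32.4 against 54.1 and 57.7. For these both floxed libraries were low, as for Oxtr. Floxed replicate 2 was the lowest for Igf1, a growth factor of the stroma, at 27.2 and 4.74 against 33.5 and 33.3 FPKM, and for Pgr, the progesterone receptor, at 53.7 and 32.2 against 68.5 and 70.0. Wnt7a, a signal of the luminal epithelium, was at 41.3 and 36.3 against 11.1 and 12.3 FPKM. Of the 12 genes, 0 passed. At an unadjusted p under 0.05 in edgeR, 2 were higher in the Cre libraries, against 7.3% of all genes tested. At that threshold 1, Wnt7a, was lower, against 6.59%. Without overlap, 8 were higher and 1 lower, against 24.7% and 23.6%. Their median log2 fold change was 1.07, with 0.60 without floxed replicate 1 and 2.56 without floxed replicate 2. The part of the hormone state of the mice in the Oxtr difference was not tested.

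**Figure D5:**
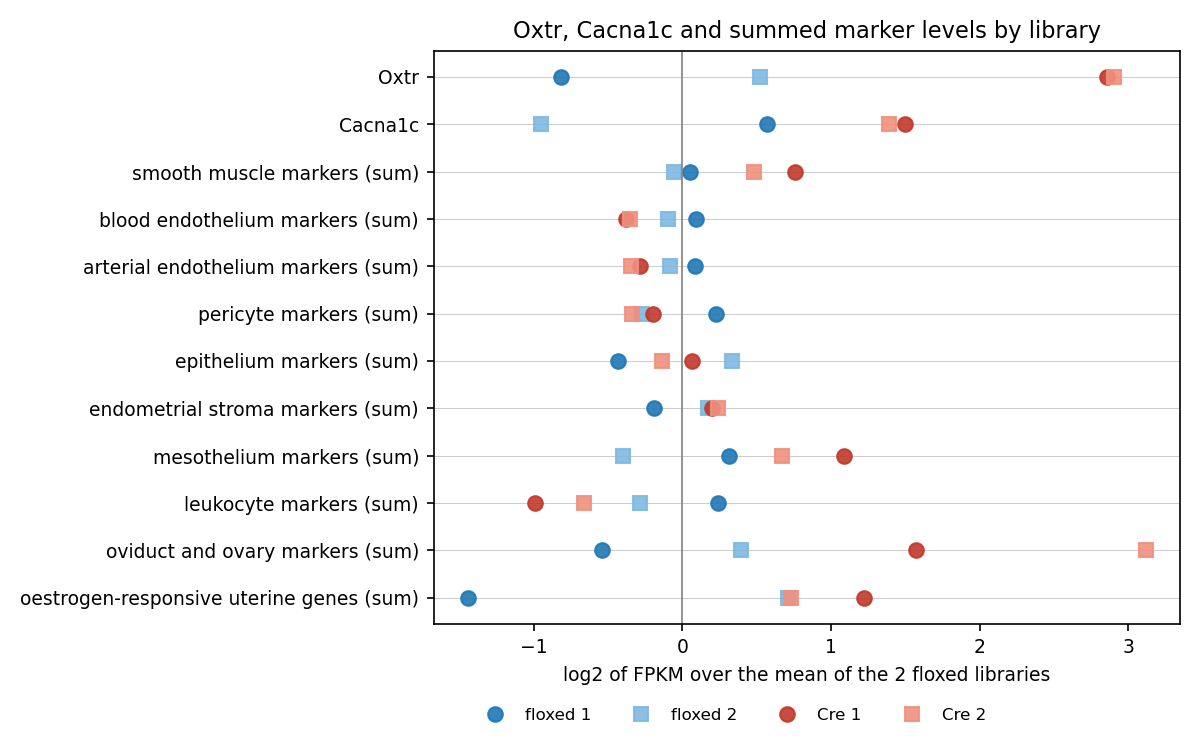
Log2 of the FPKM over the mean of the 2 floxed libraries for Oxtr, Cacna1c and the summed levels of 10 gene groups, 1 point per library. Smooth muscle markers lie higher in both Cre libraries, by less than Oxtr, while floxed replicate 1 lies lowest for the oestrogen-responsive genes.

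Other tissue markers differed between the groups as well, and none of their genes passed the test. The 7 mesothelium markers, from the outer lining of the uterus, summed to 43.2 and 26.4 FPKM in the floxed and 73.9 and 55.5 in the Cre libraries. Of the 7, 6 were higher without overlap, against 24.7% of all genes tested, and the median log2 fold change was 1.48. Among them Upk3b was at 6.88 and 5.84 against 22.6 and 13.4 FPKM, whereas Wt1, which stroma also expresses, overlapped at 24.0 and 12.4 against 14.9 and 18.9. The 8 oviduct and ovary markers summed to 23.5 and 44.8 against 101.6 and 297.0, mostly through Ovgp1 at 0.489 and 23.4 against 56.0 and 243 FPKM. Of 6 tested, 4 were higher without overlap, against 24.7% of all genes tested, and 0 lower. The median of the 6 was 2.62. Among the higher ones Foxj1 was at 0.598 and 1.34 against 9.94 and 28.4 FPKM. Star was at 2.20 and 2.12 against 7.45 and 6.08, and Hsd3b1 was at 0 in both floxed libraries. Foxl2 overlapped at 17.2 and 16.5 against 20 and 14.3. Oxtr, Cacna1c and Cacna1h were higher in the same libraries as these markers.

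Leukocyte markers lay the other way. The 10 markers summed to 582.2 and 404.1 FPKM in the floxed and 248.2 and 311.9 in the Cre libraries, with 6 of 9 tested lower without overlap. Beside this and the counts below, 23.6% of all genes tested were lower and 24.7% higher without overlap. The median of the leukocyte markers was -0.87, with -0.28 without floxed replicate 1 and -1.33 without floxed replicate 2. Lyz2 was at 418 and 229 against 187 and 248 FPKM, and Cd68 at 38.2 and 32.9 against 23.6 and 25.9. The sum of the 6 pericyte markers overlapped, at 93.5 and 66.1 against 69.5 and 63.0, while 1 marker, Cspg4, was higher and 2, Kcnj8 and Higd1b, were lower without overlap. Their median was -0.23, and 0.34 without floxed replicate 1, with Pdgfrb at 36.5 and 19.7 against 23.1 and 18.7 and Kcnj8 at 25.4 and 30.9 against 20.2 and 18.9. The 10 stroma markers summed to 927.1 and 1195 against 1220 and 1252, yet 4 of them, Pdgfra, Hoxa10, Hoxa11 and Hand2, were lower without overlap and 1, Lum, was higher. Their median was -0.27, opposite in sign to the difference of the sums, and -0.42 to -0.15 with 1 library left out. The 2 most abundant were Dcn, which overlapped at 216 and 590 against 513 and 541, and Lum at 247 and 254 against 355 and 418. The 8 Schwann cell and melanocyte markers, listed because Ednrb serves the neural crest, summed to 11.7 and 9.81 against 10.4 and 13.7 (median of 3 tested 0.52, and 0.056 to 0.89 with 1 library left out), with Mitf at 9.73 and 7.17 against 4.72 and 5.09 and S100b at 0.176 and 0.296 against 0.510 and 4.64. No marker of smooth muscle, endothelium, pericytes, epithelium, stroma, mesothelium or leukocytes was at 0 in any library, so smooth muscle and mesothelium RNA was read in tissue labelled endometrium. The part of these markers in the differences of Oxtr, Cacna1c and Cacna1h was not tested.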

How the data were processed

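Polyadenylated RNA was sequenced from 4 libraries. Each deposited file gives 1 whole-number count and 1 FPKM for every gene, per the file headers. HISAT2, GRCm38 and HTSeq 0.13.5 are listed in the submitters' processing notes, and strand was not stated. FPKM equalled the count divided by gene length and total count within 1e-06 for 23463 of 23463 genes.

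Counts were tested with edgeR 4.0.16 (R 4.3.3; quasi-likelihood, TMM scaling, group as the only term) over the 13513 genes whose mean FPKM was 1 or more. The two-sided p-values carry a Benjamini-Hochberg adjustment across all of these. SE is |log2 fold change| over the root of F. Overlap of groups was read on TMM-scaled CPM. Alternatives were other scalings and filters, DESeq2 1.42.0, limma 3.58.1 on log2(FPKM + 1) and log2(FPKM + 0.1), a replicate block, and each library left out. On simulated data for this comparison (13513 genes), 28% of 4-fold and 99% of 16-fold changes were found by edgeR, with 0 false calls. For DESeq2 these were 86%, 100% and 19. The simulation gave all genes of a group the same biological coefficient of variation, 0.404 for floxed and 0.163 for Cre. Changes were placed only in genes above a set count. Real genes differ in spread, so these rates may not carry over to the data.

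The 10 genes and 16 lists were chosen with earlier results of these data known. Named from each pathway list were the 3 genes of highest mean FPKM and the 3 of smallest p, and from each marker list the 2 of highest mean FPKM and the sum. Genes outside this rule (Rock2, Myh11, Hsd3b1, Igf1, Pgr, Cspg4, Higd1b, Pdgfra, Hoxa10, Hoxa11, Hand2) were named after their values were seen, and a few genes the rule names are not reported here. Coordinates and exon overlaps are from GENCODE M21.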

Additional observations from a re-analysis of the deposited data

How the results depend on the processing

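With all 4 libraries 0 genes and 0 of the 10 passed in edgeR under either other scaling and in both limma tests. Without a filter 1928 genes and 2 of the 10 passed, with a filter at a mean FPKM of 5 there was 1 gene, and DESeq2 called 843 and 2 of the 10; each time the 2 were Oxtr and Cacna1c. With 1 library left out the counts ran from 0 to 4249 genes and from 0 to 6 of the 10, above 0 only without a floxed library, when the lone floxed library is assumed to vary like the Cre pair. With the replicate block 0 genes and 0 of the 10 passed (Oxtr 3.03, adjusted p 0.139); same-numbered libraries did not deviate together (correlation -0.056). The 10 genes kept their direction in 109 of 117 alternative values. Oxtr, Gja1, Gjb2, Cacna1c and Cacna1h did so in all. With 1 library left out the log2 fold change ran from -1.60 to 0.43 for Edn1, -0.39 to 1.04 for Ednra, -0.26 to 0.26 for Ednrb, -0.77 to 0.076 for Gja4 and -0.31 to 1.06 for Gja5. Ednrb was -0.0055 with total count scaling and -0.058 with no filter. Among the other genes, ranges with 1 library left out that held both signs were -0.015 to 0.53 for Tjp1, -0.029 to 0.56 for Ece1, -0.55 to 0.31 for Mme, -0.24 to 1.07 for Cacna2d1, -0.99 to 0.28 for Rgs5, -0.76 to 0.037 for Pdgfrb, -0.15 to 0.41 for Krt8, -0.21 to 1.32 for Dcn, -0.46 to 0.39 for Wt1 and -0.25 to 0.25 for Foxl2. Foxl2 was -0.034 with no filter. The cause of these changes was not tested.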
